A study of Solanum tuberosum with 8 samples.

Results

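The genes described here encode the proteins of the cytosolic ribosome of the potato tuber. They were taken by name: a gene was included where its annotated product starts with 40S ribosomal protein, 60S ribosomal protein or 60S acidic ribosomal protein, and where its counts summed to at least 80 over the 8 libraries. Of the 32768 genes of the count table, 223 carried such a name and 213 passed the minimum, 86 of the small (40S) and 127 of the large (60S) subunit. The RNA-seq libraries were made from mature tubers of the diploid hybrid population 12-3, taken after harvest from untreated plants grown in pots. Equal amounts of RNA from several plants were pooled into a bulk, with 2 replicate libraries, A and B, in each of 4 bulks. Bulk L1 held plants of low tuber starch content and high *AGPaseS-a* expression and was set against bulk H1, of high starch content and high *AGPaseS-a* expression. Bulk L2 held plants of low starch content and low *AGPaseS-a* expression and was set against bulk H2, of high starch content and low *AGPaseS-a* expression. *AGPaseS-a* is a gene of ADP-glucose pyrophosphorylase, which makes the substrate of starch synthesis. A bulk is a pool, so the values of single plants are not resolved. The replicates are described as biological, but no source used here says if both were made from the same plants, so p-values measure only the spread between these libraries.

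A ribosome translates messenger RNA with a small subunit, which reads the codons, and a large subunit, which joins the amino acids. Each subunit is built from ribosomal RNA and a fixed set of proteins, most of them present in a single copy per ribosome, and in plants nearly every one of these proteins is encoded by several genes (paralogs). Transcription of these genes is known to be high in growing and dividing tissue and to respond to sugar and to the TOR kinase.

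The 213 genes carried 81 protein names, 31 of the small and 50 of the large subunit. A single gene stood behind 7 names, 2 genes behind 32, 3 behind 28, 4 behind 12 and 5 behind 2. These numbers are not the full sets of genes per protein, since the rule missed genes annotated under other wording. For L13, the gene taken by name had 71.2 to 148 CPM, while *RPL13*, outside the rule, had 646 to 1528 CPM. Shares of a protein's counts and leading genes below refer only to genes taken by name. The best Swiss-Prot match named a ribosomal protein in 212 of the 213 genes. The names also took in 3 genes annotated as mitochondrial (L2, L5 and L6) and 4 annotated as 60S ribosomal protein L18a-like protein, whose products are not established parts of the ribosome. The genes lay on 135 scaffolds of the assembly SolTub_3.0. They were short: the median span from gene start to end, introns included, was 2351 bp in the 213 genes, against 4364 bp over all genes tested. Just inside the count minimum were an L23 gene (LOC102582499, 254 counts over the 8 libraries) and the mitochondrial L5 gene (LOC107058309, 267 counts). Just outside it was an S27 gene (LOC102591266, 63 counts), and the other 9 genes left out had 13 counts or fewer. All 213 genes passed the filter on low counts and were among the 20389 genes tested. Exon lengths were not used here: shares of counts and CPM ratios between genes are not corrected for length and do not compare their levels. Counts of near-identical paralogs are uncertain, since no source used here gives the strand setting or says how reads shared by several genes were counted.

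Total counts per library lay between 15293539 and 31943185. Among the libraries, H1 replicate A (with the lowest total) and H2 replicate B stood apart: together they held the highest value of 39.2% of all genes tested, H1 replicate A of 24.7% and H2 replicate B of 14.5%, against 8.84% to 11.6% for each of the other 6 libraries. Each comparison is therefore also given without both, which leaves H1 and H2 with 1 library each, taken to have the spread of the other bulks. Patatins, the storage proteins that define tuber tissue, had summed counts of 13474 to 25497 CPM in every library (counts relative to the TMM-scaled library size). Green tissue markers (32 genes) summed to 65.1 to 283 CPM, with the small chain of Rubisco at 1.21 CPM or less, and periderm markers (14 genes) to 8.56 to 22.2 CPM.

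The share of all counts that fell on genes of the cytosolic ribosome was 5.63% and 4.90% in L1 replicates A and B, against 8.21% and 5.51% in H1. In L2 the share was 4.97% and 5.37%, against 5.50% and 7.62% in H2. The high shares were thus those of 1 library of each high-starch bulk, and the other 6 libraries lay between 4.90% and 5.63%. The mean share was 5.26 ± 0.518% in L1 and 6.86 ± 1.91% in H1, and 5.17 ± 0.285% in L2 and 6.56 ± 1.5% in H2 (SD, n = 2 each). With 2 libraries against 2, these means differ by less than the spread within the high-starch bulks. In such bulk samples, a change in the number of cells of a type and a change in the RNA per cell cannot be told apart.

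**Figure D1:**
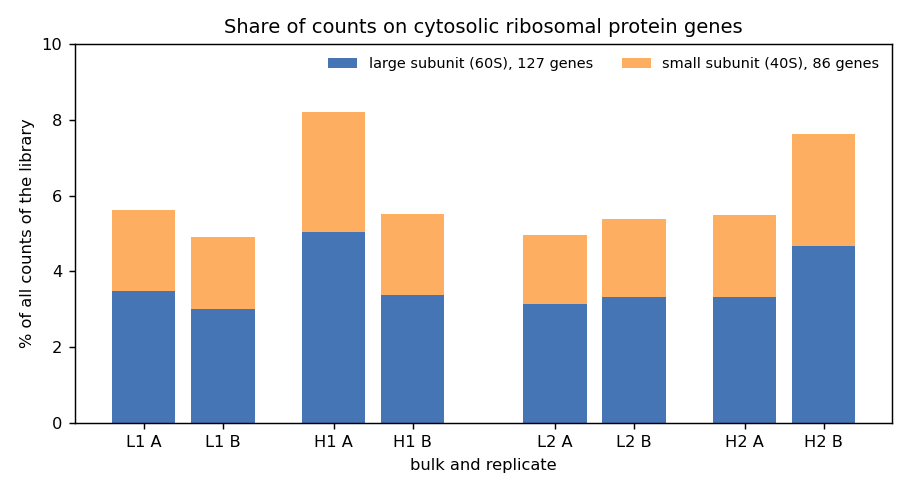
Share of all counts of a library (%) that fell on the 127 large subunit genes (blue) and the 86 small subunit genes (orange), for replicates A and B of bulks L1, H1, L2 and H2. H1 replicate A (8.21%) and H2 replicate B (7.62%) stand above the other 6 libraries, which lie between 4.90% and 5.63%.

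Both subunits moved together between libraries. The small subunit took 2.16% and 1.89% of counts in L1, against 3.17% and 2.14% in H1, and the large subunit 3.47% and 3.01% in L1, against 5.05% and 3.37% in H1. The ratio of small to large subunit counts was 0.626 ± 0.00548 in L1 and 0.631 ± 0.00535 in H1, and 0.603 ± 0.0247 in L2 and 0.644 ± 0.0179 in H2 (SD, n = 2 each). By library, the ratio was 0.586 and 0.621 in L2, against 0.656 and 0.631 in H2, without overlap. It lay between 0.586 and 0.656 in all libraries, including the pair that stood apart. In L2 the small subunit took 1.83% and 2.06% of counts, against 2.18% and 2.95% in H2. The large subunit took 3.13% and 3.31% in L2, against 3.32% and 4.67% in H2.

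Gene by gene, the same libraries were high. Of the 213 genes, 162 had their highest level in H1 replicate A and 29 in H2 replicate B, which is 89.7% of them, against 39.2% of all genes tested. Relative to a gene's own mean over the 8 libraries on the log2 scale, the median gene was at 0.71 in H1 replicate A and at 0.43 in H2 replicate B. In the other 6 libraries this median lay between -0.33 and 0.01. Small and large subunit genes had nearly the same median in H1 replicate A (0.68 and 0.71) and in H2 replicate B (0.43 and 0.41). When the genes of a protein were summed, 78 of the 81 protein names were highest in 1 of these libraries, 67 in H1 replicate A and 11 in H2 replicate B. The exceptions were L3, L4 and the stalk protein P1, each highest in L1 replicate A. These sums hold only genes taken by name. A P1 gene outside the name rule, annotated as acidic ribosomal protein P1a-like (LOC102577551), had more counts. It was highest in H2 replicate B (1182 CPM), against 431 CPM in L1 replicate A.

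**Figure D2:**
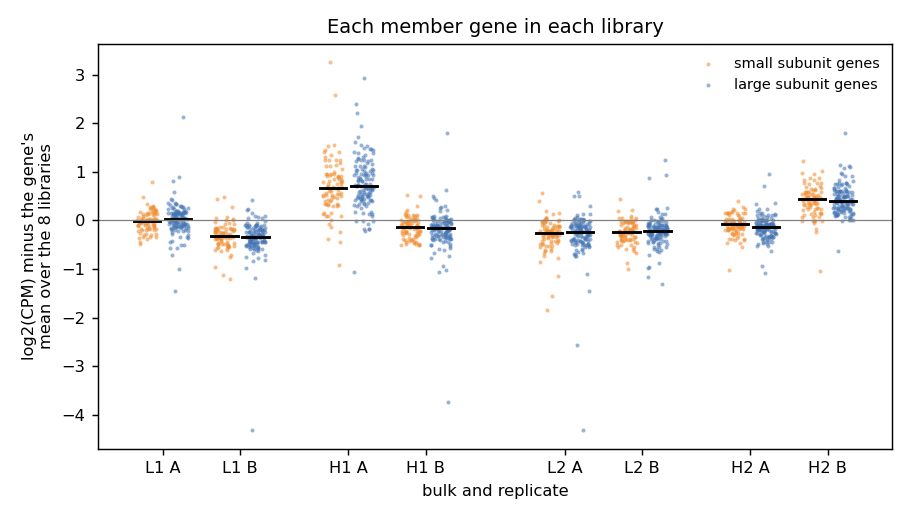
log2 CPM of each gene minus its mean over the 8 libraries, for small subunit genes (orange) and large subunit genes (blue) in replicates A and B of bulks L1, H1, L2 and H2, with 1 point per gene and the median as a black line. The medians of both subunits lie near 0.7 in H1 replicate A and near 0.4 in H2 replicate B, and at or below 0.03 in the other 6 libraries.

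Replicates differed over most of these genes in H1, H2 and L1, but not in L2. In H1, 198 of the 213 genes were higher in replicate A than in B, with a median log2 difference of 0.90. In H2, 195 were higher in replicate B than in A, with a median of 0.55. L1 also had a shift, with 189 genes higher in replicate A and a median of 0.32, while in L2 only 98 were higher in replicate A and the median was -0.02. The median over all genes tested was between -0.09 and 0.00 in the same 4 pairs. A total of 188 genes were higher in both H1 replicate A and H2 replicate B than in their partner libraries. Across the 213 genes, the difference in H1 went with that in H2 (Pearson's r = 0.46, Spearman's rho = 0.47, against 0.33 and 0.41 over all genes tested). These are correlations over genes of the same 4 libraries, which are not independent replicates.

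Only 8 genes were higher in neither of these libraries than in their partners. L3 (LOC102598069) lies near the peptidyl transferase centre of the large subunit, and its gene took 7.43% of large subunit counts, the most of any gene of that subunit. It had 3020 and 2462 CPM in L1, against 2257 and 2367 CPM in H1, and 2763 and 2385 CPM in L2, against 2760 and 2562 CPM in H2. An S20 gene (LOC102589010), for a protein of the head of the small subunit, had 130 and 102 CPM in L1, against 130 and 132 CPM in H1, and 110 and 103 CPM in L2, against 135 and 132 CPM in H2. The others were 1 gene each of L32, L4, S16 and S21 and 2 of the L18a-like proteins. These 8 genes were picked out after their values were seen.

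Other measurements moved with the same libraries. Genes with any count numbered 19392 in H1 replicate A and 20213 in H2 replicate B, against 22193 to 23188 in the others. H2 replicate B had more total counts (24667778) than H1 replicate B (20344661), where 22193 genes had a count. When the genes tested were split by span into 5 classes of equal size, the shortest class was high in them and the longest low: in the shortest (up to 2129 bp, 4073 genes, 74 of them ribosomal protein genes) the median log2 deviation was 0.25 in H1 replicate A and 0.24 in H2 replicate B. In the longest class it was -0.30 and -0.21. The ribosomal protein genes of the shortest class stood at 0.86 and 0.42, above the median of that class. The next class held 120 of the 213 genes, so the first 2 classes held nearly all of them. Markers of dividing cells moved as well: 3 of the 4 names searched (proliferating cell nuclear antigen, B-type cyclin and histone H4) had annotated genes, 9 in all, none at 0 in every library. Their summed CPM was 450 and 406 in L1, against 1071 and 520 in H1, and 442 and 460 in L2, against 490 and 950 in H2. Most of each sum came from the 3 genes named B-type cyclin, with 1009 CPM in H1 replicate A and 899 CPM in H2 replicate B. In the same libraries, proliferating cell nuclear antigen had 21.8 and 15.8 CPM, against 8.11 to 11.2 CPM in the others. Histone H4 had 40.4 and 34.5 CPM, against 13.9 to 26.3 CPM. The part of gene length, of dividing cells and of the number of genes detected in the values of the ribosomal protein genes was not tested.

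The first comparison asked whether ribosomal protein genes differed between low-starch and high-starch tubers of high *AGPaseS-a* expression. Most were lower in L1: the fitted log2 fold change (L1 minus H1) was below 0 in 189 of the 213 genes, against 48.7% of all genes tested, with a median of -0.49, against 0.02 over all genes tested. The median was -0.44 over small and -0.49 over large subunit genes, and the middle 80% of genes lay between -1.18 and 0.05. None passed the test, edgeR's quasi-likelihood test with an FDR under 0.05 (Benjamini-Hochberg) and a log2 fold change of 1.5 or more in size, and none passed with DESeq2. With edgeR, the background was also 0% of the 20389 genes tested. The share called over all genes was not counted with DESeq2, here or below. The lowest adjusted p of a ribosomal protein gene was 0.789 (edgeR, Benjamini-Hochberg), which was shared by the genes named below for this comparison. At an unadjusted p under 0.05, 28 genes were lower in L1, against 3.34% of all genes tested, and 2 were higher, against 2.39%. The 2 libraries of L1 lay below both of H1 in 62 genes, against 16.8% of all genes, and above them in 7, against 20.4%.

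The lower median in L1 rested on H1 replicate A, without which it was 0.04. Without H1 replicate A and H2 replicate B, the median over the 213 genes was 0.04, against 0.02 over all genes, and 95 genes were below 0. Then 10 genes were lower and 7 higher at an unadjusted p under 0.05, against 3.16% and 4.35% of all genes. Of the 28 genes lower with all libraries, 28 kept their sign and 7 were again at a p under 0.05.

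The genes with the lowest p in this comparison, among those without overlap, were of both subunits. S10, a protein of the head of the small subunit near the entry of the messenger RNA, had a gene (LOC102577552, scaffold NW_006238962.1, 491984 to 494987, plus strand) with 103 and 88.1 CPM in L1, against 199 and 173 CPM in H1. It had 101 and 90.6 CPM in L2, against 139 and 130 CPM in H2. Both low-starch bulks thus lay below both high-starch bulks, with no overlap and with replicates close to each other. The log2 fold change was -0.96 ± 0.24 in H1/L1 and -0.48 ± 0.23 in H2/L2 (± is the SE of the fit here and below). Without H1 replicate A and H2 replicate B, the values were -0.85 ± 0.19 and -0.53 ± 0.19.

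An L31 gene, for a protein at the end of the exit tunnel of the large subunit (LOC102584366, NW_006238978.1, 1662685 to 1665528, plus strand), had 86.0 and 87.3 CPM in L1, against 286 and 163 CPM in H1. Its fold change was -1.37 ± 0.35, and -0.91 ± 0.20 without the libraries that stood apart. An L34 gene of the large subunit (LOC102585523, NW_006238930.1, 2125943 to 2128672, plus strand) had 296 and 326 CPM in L1, against 2043 and 601 CPM in H1, and 276 and 178 CPM in L2, against 354 and 671 CPM in H2. H1 replicate A stood far above every other library. The fold change was -2.09 ± 0.58 in H1/L1, and -0.95 ± 0.29 without the libraries that stood apart.

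Against the general direction, an S29 gene (LOC102599926, NW_006239045.1, 465342 to 467333, minus strand) was higher in L1. S29 is a small zinc-binding protein of the small subunit. This gene had 55.5 and 54.3 CPM in L1, against 29.3 and 28.01 CPM in H1, and 40.9 and 39.2 CPM in L2, against 46.9 and 33.6 CPM in H2. Its replicates in L1 and in H1 nearly coincided, also in the library that stood apart. The log2 fold change was 0.94 ± 0.25 in H1/L1, 0.97 ± 0.18 without the libraries that stood apart, and -0.01 ± 0.25 in H2/L2. The other S29 gene (LOC102592795, NW_006239017.1, 151215 to 152925) ran the other way, with 339 and 278 CPM in L1, against 672 and 340 CPM in H1. Its fold change was -0.72 with all libraries, but -0.14 ± 0.22 without the libraries that stood apart. The first S29 gene took 14.1% and 16.4% of S29 counts in L1, against 4.2% and 7.6% in H1.

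An L18a-like protein gene (LOC102601255, NW_006239521.1, 129409 to 143989, minus strand) was higher in both low-starch bulks. It had 24.1 and 29.2 CPM in L1, against 10.3 and 16.7 CPM in H1, and 30.7 and 39.8 CPM in L2, against 23.6 and 14.1 CPM in H2. Its fold change was 0.97 ± 0.36 in H1/L1 and 0.90 ± 0.36 in H2/L2, and 0.67 ± 0.26 and 0.58 ± 0.25 without the libraries that stood apart. The next gene without overlap and higher in L1 was an S21 gene (LOC102591827, NW_006238928.1, 967528 to 969568) with 88.7 and 71.4 CPM in L1, against 27.2 and 52.6 CPM in H1, a fold change of 1.00 ± 0.53, and 0.61 ± 0.39 without the libraries that stood apart. S21 is a small protein on the solvent side of the small subunit.

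The most negative fold change of this comparison, -2.85 ± 1.08, was that of an S15a gene (LOC107057649) with 6.46 and 2.70 CPM in L1, against 60.4 and 5.88 CPM in H1. It was -0.36 ± 0.67 without the libraries that stood apart. This gene was picked out after its value was seen.

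**Figure D3:**
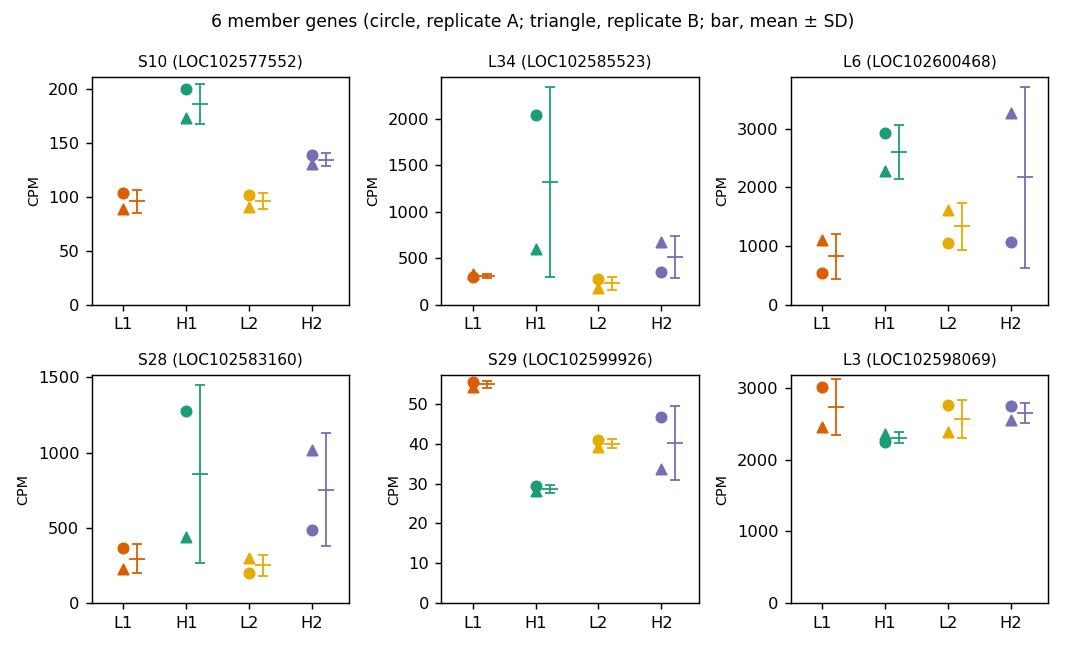
CPM of 6 genes in bulks L1, H1, L2 and H2, with circles for replicate A, triangles for replicate B, and the mean ± SD (n = 2) beside them on axes that start at 0. S10 is lower in both low-starch bulks with close replicates, the L34, S28 and L6 genes spread widely within H1 or H2, S29 is higher in L1 (55.5 and 54.3 CPM) than in H1 (29.3 and 28.01 CPM), and L3 varies little between libraries.

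The second comparison asked the same of tubers of low *AGPaseS-a* expression, L2 against H2. The fitted log2 fold change was below 0 in 199 of the 213 genes, against 48.7% of all genes tested, with a median of -0.42, against 0.01 over all genes tested. The medians were -0.44 over small and -0.39 over large subunit genes. Again no ribosomal protein gene was called by edgeR (background 0%) or by DESeq2, and every adjusted p was at least 0.999995 (edgeR, Benjamini-Hochberg). At an unadjusted p under 0.05, 9 genes were lower in L2, against 1.32% of all genes tested, and 1 was higher, against 1.04%. Of the 9 lower genes, 7 were of the small and 2 of the large subunit, against 13 and 15 in H1/L1. The libraries of L2 lay below both of H2 in 113 genes, which is 53.1% of them, against 14.8% of all genes, and above them in 3, against 17.3%. Without H1 replicate A and H2 replicate B the median was -0.10, against 0.01 over all genes, with 146 genes below 0. Then 11 genes were lower at an unadjusted p under 0.05, against 2.71% of all genes, and 2 higher, against 2.82%. Of these 11 genes, 4 were among the 9 found with all libraries.

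An S28 gene (LOC102583160, NW_006239309.1, 369378 to 371186, plus strand), for a small protein of the small subunit close to the messenger RNA, was lower in both low-starch bulks. It had 199 and 299 CPM in L2, against 486 and 1018 CPM in H2, and 363 and 227 CPM in L1, against 1276 and 437 CPM in H1. Its fold change was -1.59 ± 0.57 in H2/L2 and -1.54 ± 0.57 in H1/L1. Without the libraries that stood apart it was -0.96 ± 0.35 and -0.57 ± 0.36. Its neighbour on the scaffold, an S5 gene (LOC102597496, start 3735 bp away), had 650 and 905 CPM in L2, against 1056 and 1107 CPM in H2, a fold change of -0.48 ± 0.34.

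An S6 gene (LOC102583648, NW_006239117.1, 551805 to 554872, plus strand) was also lower in both low-starch bulks. S6 is the ribosomal protein that S6 kinase phosphorylates downstream of TOR. The gene had 95.9 and 74.4 CPM in L2, against 136 and 265 CPM in H2, and 138 and 101 CPM in L1, against 404 and 162 CPM in H1. Its fold change was -1.24 ± 0.48 in each comparison, and without the libraries that stood apart it was -0.68 ± 0.26 in H2/L2 and -0.43 ± 0.26 in H1/L1. Of the other S6 genes, a neighbour 11811 bp away (LOC102584650) had 97.4 and 96.8 CPM in L2, against 68.0 and 90.5 CPM in H2, above both libraries of H2 but by only 0.29 ± 0.40 on the log2 scale, and had -0.47 ± 0.40 in H1/L1. Without the libraries that stood apart these values were 0.51 ± 0.20 and 0.31 ± 0.19. The remaining pair of S6 genes had fold changes of -0.30 ± 0.31 (LOC102600285) and -0.08 ± 0.29 (LOC102584897) in H2/L2, and -0.18 ± 0.31 and -0.13 ± 0.29 in H1/L1. Left without the same libraries, LOC102600285 had -0.05 ± 0.27 in H2/L2 and 0.04 ± 0.27 in H1/L1, and LOC102584897 had -0.03 ± 0.26 and 0.13 ± 0.26. No S6 gene was called.

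An L23 gene (LOC102582499, NW_006238993.1, 218116 to 220696) had the largest fold change in H2/L2, -3.14 ± 1.02, on very few reads: 3 and 12 counts in L2, against 21 and 78 counts in H2. In H1/L1 it had 21 and 19 counts in L1, against 28 and 72 counts in H1. Its fold change in H2/L2 without the libraries that stood apart was -1.69 ± 0.91. Another gene above both libraries of H2 was an S5 gene (LOC102606169), with 20.0 and 20.9 CPM in L2, against 13.8 and 16.2 CPM in H2, a fold change of 0.45 ± 0.33.

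A total of 180 genes (84.5%) had a fold change below 0 in both comparisons and 5 (2.35%) above 0 in both. Over all genes tested, 31.9% were below 0 in both and 34.5% above 0 in both. The comparisons share no library, but each has in its high-starch bulk 1 of the libraries that stood apart. Below both libraries of the high-starch bulk in both comparisons were 47 genes, which is 22.1% of them, against 4.67% of all genes tested. Lower at an unadjusted p under 0.05 in both were 5, which is 2.35%, against 0.304% of all genes tested. These 5 were of the small subunit: the S28 and S6 genes above, 2 genes of S19 and 1 of S23. S19 is needed in yeast and human cells for the maturation of the small subunit, and S23 lies at the decoding centre. The S19 genes had -0.94 ± 0.39 (LOC102577827) and -0.88 ± 0.37 (LOC102604160) in H1/L1, and -0.96 ± 0.39 and -0.90 ± 0.37 in H2/L2. The S23 gene (LOC102606349) had -1.15 ± 0.45 in H1/L1 and -1.07 ± 0.45 in H2/L2. With the libraries that stood apart left out, the S19 genes had -0.41 ± 0.19 and -0.34 ± 0.24 in H1/L1, and -0.44 ± 0.19 and -0.61 ± 0.24 in H2/L2. The S23 gene then had -0.31 ± 0.30 in H1/L1 and -0.83 ± 0.30 in H2/L2. These 3 genes were named after their values were seen.

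**Figure D4:**
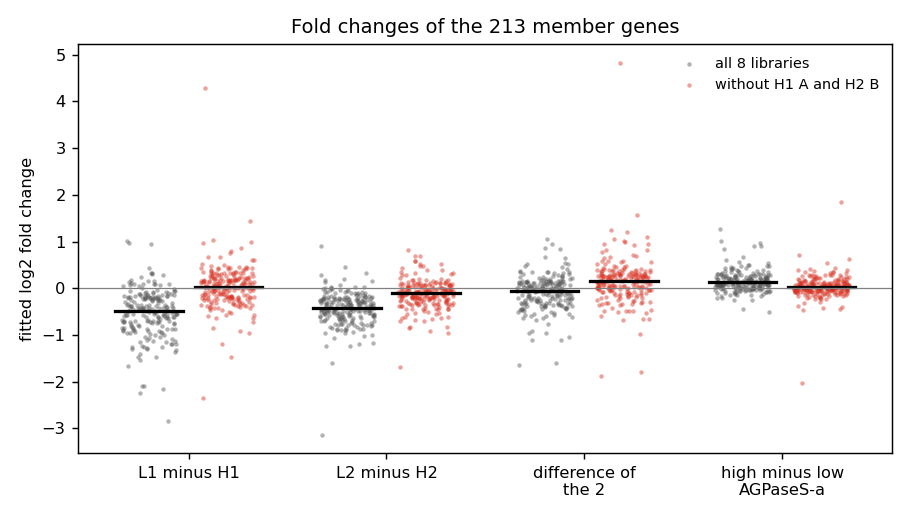
Fitted log2 fold changes of the 213 genes in L1 minus H1, L2 minus H2, the difference of these, and high minus low AGPaseS-a, with all 8 libraries (grey) and without H1 replicate A and H2 replicate B (red), with 1 point per gene and the median as a black line. The medians of the first pair of comparisons are -0.49 and -0.42 with all libraries, and 0.04 and -0.10 without the pair.

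Whether the starch comparison differed between the classes of *AGPaseS-a* expression was tested as the difference of the fold changes, H1/L1 minus H2/L2. Its median over the 213 genes was -0.06, against -0.01 over all genes tested, and -0.02 over small and -0.06 over large subunit genes, with 125 genes below 0, against 50.6% of all genes tested. No ribosomal protein gene was called by edgeR (background 0%) or by DESeq2. At an unadjusted p under 0.05 only the S29 gene LOC102599926 was higher, by 0.95 ± 0.35, against 0.839% of all genes, and none was lower, against 0.736%. The next genes in either direction, L10 (LOC102582711, 0.66 ± 0.40), S12 (LOC102603178, 0.85 ± 0.52), L35 (LOC102579307, -0.96 ± 0.60), L37a (LOC102581050, -1.10 ± 0.71) and P2 (LOC102588127, -1.10 ± 0.73), did not reach that p. Without the libraries that stood apart, the difference was 1.20 ± 0.25 for the S29 gene, 1.01 ± 0.25 for L10, 0.16 ± 0.37 for S12, -1.87 ± 0.49 for L35, -0.36 ± 0.43 for L37a and -0.49 ± 0.41 for P2. At an unadjusted p under 0.05, 6 genes were then higher and 3 lower, against 2.6% and 2.1% of all genes.

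Between bulks of high *AGPaseS-a* expression (L1 and H1) and those of low expression (L2 and H2), the ribosomal protein genes differed little. The median log2 difference was 0.13, against 0.00 over all genes, and 0.03 without the libraries that stood apart. Below 0 were 42 genes, against 49.9% of all genes tested. No ribosomal protein gene was called by edgeR (background 0.0049%, 1 gene) or by DESeq2, and in none did the libraries of the classes not overlap (background 0.961% higher and 1.3% lower). At an unadjusted p under 0.05, 2 genes were higher, against 1.46% of all genes, and none was lower, against 1.68%. They were the L34 gene above (0.91 ± 0.40) and an L39 gene (LOC102578685, NW_006238930.1, 1347022 to 1347543), with 0.90 ± 0.30. Without the libraries that stood apart, the L34 gene LOC102585523 had 0.62 ± 0.21 and the L39 gene LOC102578685 0.53 ± 0.20. L39 is a very small protein in the wall of the exit tunnel. Its gene had 14.8 and 11.5 CPM in L1 and 28.7 and 11.7 CPM in H1, against 6.95 and 5.97 CPM in L2 and 11.4 and 12.1 CPM in H2.

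The stalk of the large subunit, which calls in the elongation factors, is built from P0, which anchors it, and the small acidic proteins P1, P2 and the plant protein P3. The only P0 gene above the count minimum (LOC102578519) had 762 and 755 CPM in L1, against 803 and 595 CPM in H1, and 667 and 703 CPM in L2, against 589 and 823 CPM in H2. Of the P1 genes taken by name, LOC102585385 held 93.8% of counts. It had 214 and 173 CPM in L1, against 149 and 160 CPM in H1. In L2 it had 159 and 146 CPM, against 157 and 196 CPM in H2. A P1a-like gene outside the name rule (LOC102577551) had more counts and ran the other way in H1/L1. It had 431 and 494 CPM in L1, against 1064 and 692 CPM in H1. Its fold change was -0.92 ± 0.41 in H1/L1 and -0.68 ± 0.41 in H2/L2. Without the libraries that stood apart these were -0.58 ± 0.30 and -0.07 ± 0.30. The only P3 gene (LOC102593291) followed the libraries that stood apart, with 214 and 216 CPM in L1, against 640 and 196 CPM in H1, and 147 and 159 CPM in L2, against 161 and 373 CPM in H2. The libraries of P0 overlapped in both comparisons. Those of the P1 gene LOC102585385 overlapped in H2/L2 and were higher in L1 than in H1 (0.33 ± 0.25). Those of P3 ranged over nearly the same values within H1 as between bulks. The main P2 gene (LOC102599598, 92.2% of P2 counts) had 192 and 258 CPM in L2, against 300 and 483 CPM in H2, with a fold change of -0.80 ± 0.32, and -0.41 ± 0.24 without the libraries that stood apart. The minor P2 gene (LOC102588127) had 14.7 and 17.4 CPM in L1, against 68.0 and 21.5 CPM in H1, a fold change of -1.48 ± 0.53, and -0.42 ± 0.28 without them. The other P1 gene taken by name (LOC102582163) had fold changes of 0.42 ± 0.67 in H1/L1 and -0.09 ± 0.67 in H2/L2, and 1.44 ± 0.73 and 0.39 ± 0.69 without them.

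L5 and L11 bind the 5S ribosomal RNA and enter the large subunit with it as a particle. The libraries of both L5 genes overlapped in both comparisons, with fold changes of -0.10 ± 0.32 (LOC102589540) and -0.16 ± 0.33 (LOC102594641) in H1/L1 and -0.11 ± 0.32 and -0.18 ± 0.33 in H2/L2. The L5 genes were above 0 without the libraries that stood apart, with 0.33 ± 0.24 and 0.25 ± 0.24 in H1/L1 and 0.07 ± 0.24 and 0.11 ± 0.23 in H2/L2. They took 67.5% and 32.5% of L5 counts. The 4 L11 genes had fold changes between -0.74 ± 0.39 (LOC102584908) and -0.04 ± 0.35 (LOC102606209) in H1/L1, and between -0.74 ± 0.39 and -0.17 ± 0.35, for the same genes, in H2/L2. None of these was at an unadjusted p under 0.05. The L11 gene LOC102584908, without the libraries that stood apart, had -0.09 ± 0.24 in H1/L1 and -0.45 ± 0.23 in H2/L2, and LOC102606209 had 0.45 ± 0.24 and 0.16 ± 0.23. L10, which joins the large subunit late in its assembly, was encoded by 3 genes, of which 1 (LOC102583043, NW_006238977.1, 2048731 to 2051693, plus strand) differed within bulks more than between them. It had 137 and 90.4 CPM in L1, against 207 and 5.79 CPM in H1, and 28.2 and 148 CPM in L2, against 127 and 165 CPM in H2. Its share of L10 counts was 1.7% in H1 replicate B and 9.2% in L2 replicate A, but 21.3% to 38.96% in the other 6 libraries. Its fold change in H1/L1 was 0.10 ± 1.23 with all libraries and 4.29 ± 1.10 without the pair that stood apart, where H1 is represented by the 5.79 CPM of replicate B alone.

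Of the 74 protein names with 2 or more genes taken by name, 10 drew at least 90% of their counts from 1 gene. The median share of the leading gene was 60.8%. The widest gaps between leading and least gene, as a log2 ratio of their mean CPM, were 7.55 for L23, 7.36 for L23a and 6.43 for S7. L23 lies on the face of the large subunit towards the small one, L23a holds the signal recognition particle at the exit tunnel, and S7 is a protein of the small subunit. Among the genes taken by name, the leading S7 gene (LOC102589285) held 98.8% of S7 counts. A gene outside the name rule, annotated as ribosomal protein S7-like protein (LOC102577530), had more counts than these S7 genes together. It had 560 to 1202 CPM, against sums of 339 to 685 CPM. The leading L23a gene taken by name (LOC102588879) held 81.8% of L23a counts. The L23a gene had 375 and 377 CPM in L1, against 1260.2 and 617 CPM in H1, a fold change of -1.32 ± 0.45, and -0.71 ± 0.20 without the libraries that stood apart. The least L23a gene (LOC102600627) was the only 1 of the 213 with no count in some library: it had 207 and 0 counts in L1, 143 and 38 in H1, 0 and 115 in L2, and 80 and 72 in H2. It and another L23a gene (LOC102585355) formed the pair whose log2 ratio varied most between bulks, over a range of 3.00, which was less than the pooled SD of 3.17 between replicates.

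**Figure D5:**
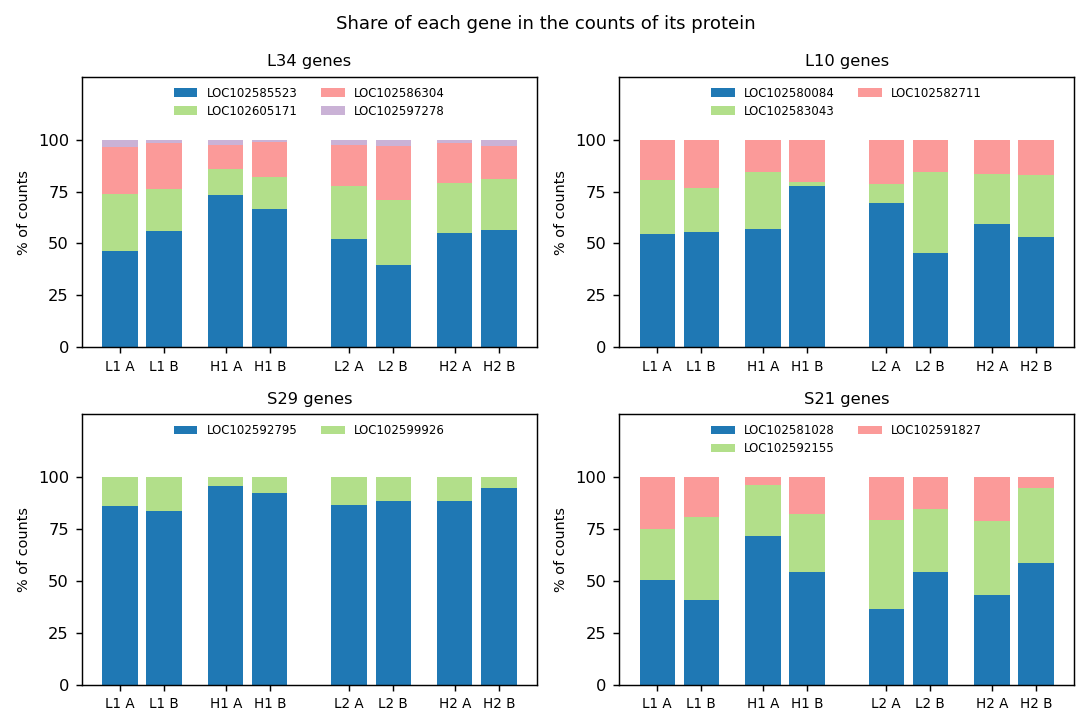
Share (%) of each gene in the counts of its protein, for L34, L10, S29 and S21 in replicates A and B of bulks L1, H1, L2 and H2. The leading L34 gene takes 73.5% and 66.6% in H1 and less in the other libraries, 1 L10 gene is at 1.7% in H1 replicate B, and the minor S29 gene takes 14.1% and 16.4% in L1 against 4.2% and 7.6% in H1.

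Most counts of the small subunit came from an S4 gene (LOC102605939, 4.19% of small subunit counts), an S5 gene (LOC102597496, 4.12%) and an S27 gene (LOC102600252, 4.08%). The S4 gene had 549 and 704 CPM in L2, against 1135 and 1121 CPM in H2, with close replicates in H2 and no overlap. Its fold change in H2/L2 was -0.85 ± 0.41, and -0.86 ± 0.23 without the libraries that stood apart. In H1/L1 it was -0.38 with all libraries and 0.39 ± 0.24 without them. In the large subunit, L3 was followed by an L18 gene (LOC102585572, 5.45% of large subunit counts) and an L6 gene (LOC102600468, 4.41%). The L6 gene had 543 and 1097 CPM in L1, against 2932 and 2283 CPM in H1, and 1046 and 1620 CPM in L2, against 1074 and 3260 CPM in H2. Both libraries of L1 lay below both of H1, while those of L2 and H2 overlapped. The fold change was -1.67 ± 0.56 in H1/L1 and -1.48 ± 0.45 without the libraries that stood apart. In H2/L2 it was -0.70 ± 0.55 with all libraries and 0.31 ± 0.48 without them. The fewest counts of the small subunit were those of an S7 gene (LOC102603415, 989 counts over the 8 libraries).

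Genes that work with these proteins were read from lists made by product name. The 7 genes of ubiquitin fused to L40 or S27a, whose products are ribosomal proteins under another name, had a median log2 fold change of -0.63 in H1/L1 and -0.57 in H2/L2, with 1 lower and 0 higher at an unadjusted p under 0.05 in each. The 11 tested genes of other cytosolic names had medians of -0.58 and -0.49, with 1 and 3 lower and 0 higher. This list includes LOC102580183, annotated as an L11 methyltransferase and so not a ribosomal protein. Plastid ribosomal proteins (74 tested) had medians of -0.20 and -0.30, with 2 lower in each, and those of mitochondria (19 tested) -0.07 and -0.18, with 1 and 0 lower. Ribosome biogenesis factors (63 tested) had medians of -0.25 and -0.13, with 4 and 1 lower, elongation factors (14 tested) -0.26 and -0.17, with 0 and 0 lower, and initiation factors (61 tested) -0.13 and -0.11, with 4 and 1 lower. Over all genes tested, 3.34% were lower and 2.39% higher at that p in H1/L1, and 1.32% and 1.04% in H2/L2. Counts of so few genes are not read as a shift of a list. No gene of these lists was called. In H1 replicate A the median log2 deviation was 0.94 for the ubiquitin fusions, 0.45 for the plastid and 0.31 for the mitochondrial ribosomal proteins, 0.51 for elongation factors and 0.26 for biogenesis factors. In H2 replicate B it was 0.48 for the ubiquitin fusions, 0.28 for the plastid and 0.37 for the mitochondrial ribosomal proteins, 0.03 for elongation factors and 0.21 for biogenesis factors. Other cytosolic names stood at 0.61 and 0.44 in these libraries, and initiation factors at 0.23 and 0.13. Without the libraries that stood apart, the median of each of these lists lay between -0.15 and 0.25 in both comparisons.

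TOR and S6 kinase genes (9 tested) had a median log2 fold change of 0.13 in H1/L1 and 0.32 in H2/L2, with 1 higher and 0 lower at an unadjusted p under 0.05 in each, and 0.06 and -0.11 without the libraries that stood apart. Their median log2 deviation was -0.20 in H1 replicate A and -0.59 in H2 replicate B. Over all genes tested, 2.39% were higher at an unadjusted p under 0.05 in H1/L1 and 1.04% in H2/L2. The gene of the list that was higher was the same in both, an S6 kinase gene (LOC102591740, annotated as AtPK2/AtPK19). It had 42.2 and 56.3 CPM in L1, against 32.4 and 27.2 CPM in H1, and 50.5 and 42.3 CPM in L2, against 29.3 and 28.4 CPM in H2. Each library of a low-starch bulk lay above each library of a high-starch bulk. The fold change was 0.73 ± 0.26 in H1/L1 and 0.69 ± 0.26 in H2/L2, and 0.86 ± 0.26 and 0.66 ± 0.26 without the libraries that stood apart. It was not called after adjustment, and it was named after its values were seen. Another S6 kinase gene (LOC102595020, annotated as AtPK2/AtPK19-like) ran the other way, with -0.24 ± 0.24 in H1/L1 and -0.16 ± 0.24 in H2/L2. Without the libraries that stood apart, LOC102595020 had -0.15 ± 0.22 in both. The remaining S6 kinase gene (LOC102588352) had at most 0.684 CPM in any library.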

How the data were processed

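RNA-seq counts of 8 tuber libraries were analysed. The authors removed adapters and poor bases with Trimmomatic, mapped the reads to SolTub_3.0 with TopHat2 2.0.9 and Bowtie2 2.1.0 and counted them per gene with HTSeq. The deposited values are these raw counts. Tables of the comparisons also hold the authors' fold changes, log2 ratios and p-values, none of which were used, and 2 columns that match no sample were left out. Total counts per library give the depth, and standard errors the precision.

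With edgeR 4.0.16 (R 4.3.3), filterByExpr kept 20389 genes. They were scaled by TMM and fitted with a mean for each bulk over the 8 libraries, and contrasts were tested by quasi-likelihood. Benjamini-Hochberg adjustment ran over every gene tested, and calls needed an FDR below 0.05 and a log2 fold change of 1.5 or more in size. log2 CPM used a prior count of 2. The procedure was tested on simulated counts that shared a common dispersion and held no libraries that stood apart. That simulation cannot show how the tests behave with such libraries.

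The genes named were, per comparison, the 3 in each direction of lowest p without overlap between groups (for the difference of the comparisons, of lowest p alone), those of most and fewest counts per subunit (levels per length were not used here), the stalk proteins, S6, L5, L11 and L10, the widest paralog gaps, the most variable pair and those at the count minimum. Members and lists were chosen with earlier results of these data known. Alternatives were DESeq2 1.42.0, RLE, library totals, no filter, the replicate letter as a block, libraries left out, the 4 libraries of a comparison alone, unadjusted p, organelle-named members left out, 1 gene per name and a denominator without the 100 highest genes. Promoters and protein sequences were not analysed here.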

Additional observations from a re-analysis of the deposited data

Results flagged for a closer look

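The S29 gene LOC102599926 was singled out because its difference between low-starch and high-starch bulks differed between the classes of *AGPaseS-a* expression. The difference of the log2 fold changes, H1/L1 minus H2/L2, was 0.95 ± 0.35 (SE), under 0.05 in unadjusted p by edgeR's quasi-likelihood test, with 0.94 ± 0.25 in H1/L1 and -0.01 ± 0.25 in H2/L2. It was the only 1 of the 213 genes at that level, against 0.839% of all genes tested that were higher and 0.736% that were lower, and did not pass the adjustment over all genes tested. Leaving out each library in turn gave values between 0.68 and 1.17, and the unadjusted p was above 0.05 in 5 of these 8 fits.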

How the results depend on the processing

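No ribosomal protein gene was called in the 4 comparisons under DESeq2, RLE, library totals, no filter, the replicate block, each library left out or both H1 replicate A and H2 replicate B left out. With an unadjusted p under 0.05 as the threshold, 30 were called in H1/L1 and 10 in H2/L2. Over all genes tested, 3.34% were lower and 2.39% higher at that p in H1/L1, and 1.32% and 1.04% in H2/L2. With 1 library left out, the median log2 fold change ranged from -0.86 (without H1 replicate B) to 0.042 (without H1 replicate A) in H1/L1, from -0.62 to -0.10 (without H2 replicate B) in H2/L2, from -0.43 (without H1 replicate B) to 0.44 (without H1 replicate A) in their difference and from -0.12 (without H1 replicate A) to 0.33 (without H1 replicate B) in high against low *AGPaseS-a*. Without H1 replicate A and H2 replicate B it was 0.037 in H1/L1. Small minus large subunit medians ranged from -0.089 to 0.060 in H1/L1, from -0.054 to 0.0046 in H2/L2, from 0.0096 to 0.10 in the difference and from -0.042 to 0.036 in high against low *AGPaseS-a*, and came to -0.038 in H1/L1 without the pair.

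The number of genes lower in L1 than in H1 at an unadjusted p under 0.05 (28) became 51 with DESeq2, 46 with no filter, 10 without the pair and 17 with the 4 libraries of the comparison alone, and ranged from 4 (without H1 replicate A or L1 replicate B) to 114 (without H1 replicate B) with 1 library left out. In H2/L2 (9) it became 16 with DESeq2 and 20 with the 4 libraries alone, and ranged from 0 (without H2 replicate B or L2 replicate A) to 35 (without H1 replicate A or B). The replicate block gave 16 genes in H1/L1 and 6 in H2/L2. No source used here says that a letter marks a shared origin, and over all genes tested the difference of replicates A and B correlated at 0.13 between H1 and L1 and at -0.08 between H2 and L2. With 1 gene per protein name, the ratio of small to large subunit counts was 0.570 in L1, 0.567 in H1, 0.539 in L2 and 0.588 in H2. Leaving the 100 genes of most counts out of the denominator put the share of counts at 7.01% in L1, 9.31% in H1, 6.87% in L2 and 8.88% in H2. The cause of these shifts was not tested. The fold changes of the genes named by lowest p in a comparison kept their sign in that comparison under every alternative run on them. For H1/L1 and H2/L2, these genes were picked for groups that do not overlap in the same libraries. A kept sign therefore says little about them. Their sizes moved. With 1 library left out, the difference of the comparisons for P2 (LOC102588127) ranged from -1.70 to -0.04. The spread between 2 libraries of a bulk limits these comparisons.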
